A study of Mus musculus with 6 samples.

Results

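Ribosomal protein genes were described in splenic CD4+ T cells of mice in the acute phase of experimental autoimmune encephalomyelitis (EAE), a model of multiple sclerosis in which immunised mice develop inflammation of brain and spinal cord. The members were all protein-coding genes whose symbol is Rpl or Rps with a number, Rplp0 to Rplp2 or Rpsa (the cytosolic set, S6 kinases left out), or starts with Mrpl or Mrps (the mitochondrial set). They numbered 172 of 54532 genes listed, 94 cytosolic and 78 mitochondrial. RNA was sequenced from 3 Ogt-KD mice, of genotype Ogtfl/wt CD4-Cre, and 3 control mice, labelled wild type, all on the C57BL/6 strain and all with EAE. The Ogt-KD mice thus kept 1 wild-type allele of Ogt, the X-linked gene of the O-GlcNAc transferase. They carried a Cre driven by Cd4 sequence, which acts in T cells. Which Ogt allele each cell used cannot be seen in bulk RNA. No Cre or floxed allele is named for the controls, so effects of the Cre and of Ogt cannot be told apart.

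Ribosomes in the cytosol translate the messages of nuclear genes, and their proteins form a large and a small subunit around ribosomal RNA. Messages of cytosolic ribosomal proteins are abundant and usually start with a terminal oligopyrimidine (TOP) tract, a C followed by pyrimidines, through which mTORC1 signalling controls their translation. Mitochondrial ribosomes are built from a separate set of nuclear-encoded proteins and translate only the few messages of the mitochondrial genome. When T cells are activated they grow, and both kinds of ribosome are made in larger numbers.

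Of the 94 cytosolic members, 77 were the core subunit genes, 46 of the large and 31 of the small subunit. The other 17 were paralogs, copies annotated as protein-coding, and Rps19bp1, a nucleolar protein that matches by name only. By symbol, 49 mitochondrial members were Mrpl and 29 Mrps genes. In the assembled mitochondrial ribosome the products of Mrps30 and Mrps18a lie in the large subunit, and in human cells MRPS36 is known as a part of the 2-oxoglutarate dehydrogenase complex, so the split by symbol is approximate. Enough reads for a test were found for 89 cytosolic members, all 77 core genes among them, and for 77 mitochondrial members. Rpl10l, Rpl13a-ps1, Rpl36-ps4, Rpl9-ps1 and Mrpl53 had 0 counts in all libraries (a count of 0 allows up to 3 per library). Mrpl53 shares exons on its strand with Gm42688, a protein-coding gene that held 318 counts, so how its reads were assigned is uncertain. Rpl3l, the striated-muscle paralog of Rpl3, had 13, 0 and 4 counts in Ogt-KD libraries and 1, 0 and 1 in controls.

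The bases around annotated transcript starts show how far this tract is seen in the annotation. The windows below are from RefSeq on GRCm38.p6, read along the transcript, with the annotated start at base 16. Capitals mark the C and pyrimidine run nearest to that start and within 10 bases of it. They are given for 4 core genes with small and 4 with large spread between libraries, described further on, and for the 2 mitochondrial members with the highest level.
Rps2 (chr17:24720048-24720077, plus strand): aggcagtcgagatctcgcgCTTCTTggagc
Rpl28 (chr7:4792950-4792979, plus strand): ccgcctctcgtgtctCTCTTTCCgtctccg
Rpl14 (chr9:120571502-120571531, plus strand): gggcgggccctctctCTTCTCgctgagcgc
Rplp2 (chr7:141447636-141447665, plus strand): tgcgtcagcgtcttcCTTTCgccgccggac
Rpl36a (chrX:134585639-134585668, plus strand): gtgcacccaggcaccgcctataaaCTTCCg
Rps7 (chr12:28635939-28635968, minus strand): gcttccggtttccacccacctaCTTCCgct
Rpl31 (chr1:39367836-39367865, plus strand): cttcctcctcgcCTCCCCgtgacccggaag
Rps3a1 (chr3:86142654-86142683, minus strand): ttaaagccggaagggcgaaagagcaagggt
Mrps21 (chr3:95871500-95871529, minus strand): gcttcCTCCCgtcgcgggactccgtagctt
Mrpl52 (chr14:54426894-54426923, plus strand): tgccggggccacgcccaCTTCCggttccct

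The run searched was a C followed by at least 4 bases that are each C or T, on the transcript strand only. Exactly at the annotated start it was present in 14 of 66 cytosolic members with a RefSeq start (21.2%), in 0 of 69 mitochondrial members and in 3.01% of all 27025 genes in that table. Within 10 bases of the start it was present in 60.6% of cytosolic members, 44.9% of mitochondrial members and 34.4% of all genes. An annotated start can be off by some bases, and a match in letters is not a measured start site.

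Ogt itself had 662, 599 and 459 CPM (counts scaled by library size and TMM factor) in Ogt-KD libraries and 599, 628 and 562 CPM in control libraries. The groups overlapped. The change on the log2 scale, Ogt-KD over control (log2FC), was -0.06 (SE 0.15, edgeR quasi-likelihood adjusted p = 0.981), and reads from exons that the deletion leaves in place are included. Total counts ran from 18969803 to 25683453 in Ogt-KD and from 18127031 to 24917282 in control libraries. The T cell markers were present, Cd3d at 301 to 410 CPM in Ogt-KD and 348 to 388 CPM in control libraries. Over the whole series, of 16075 tested genes 1 passed an adjusted p of 0.05. The series' design gives 3 mice a group, and the sample labels number the libraries without tying each to 1 mouse, so the p-values measure the spread between these samples.

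No ribosomal protein gene of either set passed the test. At an adjusted p under 0.05, the count was 0 of 89 cytosolic and 0 of 77 mitochondrial members, against 0.00622% of all genes tested (edgeR quasi-likelihood test, Benjamini-Hochberg over 16075 genes). The smallest adjusted p was 0.650 in the cytosolic and 0.669 in the mitochondrial set. At an unadjusted p under 0.05 there was 1 cytosolic member, Rps10, and 0 mitochondrial members, against 7.52% of all genes. DESeq2 also called 0 members of either set, where it called 0.784% of all genes, and at an unadjusted p under 0.05 it had 2 cytosolic members and 0 mitochondrial ones, against 7.46% of all genes. An edgeR fit with a block for replicate number called 47 genes (0.292%) and again 0 members, with 4 cytosolic members and 1 mitochondrial member at an unadjusted p under 0.05, against 13.2% of all genes. In the authors' deposited table the adjusted p was under 0.05 for 0.417% of genes with a value and for 0 members, and the smallest among members was 0.654, for Rpl8.

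The cytosolic set lay slightly below 0 as a whole, and the mitochondrial set near 0. The median log2FC of Ogt-KD over control was -0.18 over the 89 cytosolic members, of which 83 were below 0, and -0.02 over the 77 mitochondrial members, of which 44 were below 0. Over all genes tested the median was -0.005 and 51% were below 0. The large-subunit genes had a median of -0.16 and the small-subunit genes one of -0.20. Genes of a set share the same 6 libraries, so the counts of genes below 0 are a description and carry no p-value.

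**Figure D1:**
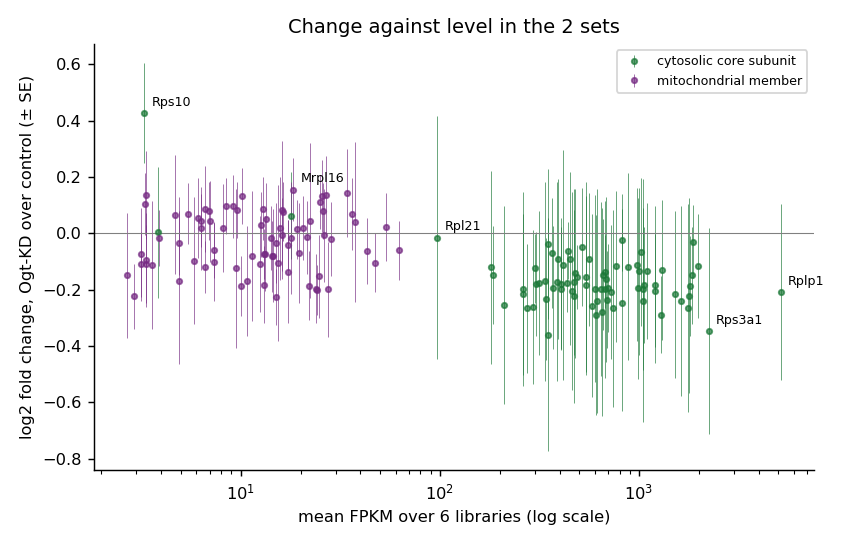
Log2FC of Ogt-KD over control (y axis, bars show the SE) against the mean FPKM over 6 libraries (x axis, log scale) for the 77 cytosolic core genes and the 77 tested mitochondrial members. The cytosolic points lie mostly a little below 0 at levels far above those of the mitochondrial points, and Rps10, at 3.29 FPKM, stands highest.

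The level of the cytosolic set varied widely within both groups. For each gene, the log2 CPM was set against its own mean over the 6 libraries, and the mean of these deviations over a set served as the set's level in a library. The cytosolic level was -0.29, -0.41 and 0.40 in Ogt-KD replicates 1, 2 and 3, and 0.28, -0.22 and 0.23 in control replicates 1, 2 and 3. Thus Ogt-KD replicates 1 and 2 and control replicate 2 were low and the other libraries high, with the highest and the lowest library both Ogt-KD. The mean over libraries was -0.10 ± 0.44 in Ogt-KD and 0.10 ± 0.28 in control libraries (SD, n = 3 each), a difference of -0.19 that was smaller than the spread within either group.

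The mitochondrial level followed the same split over a narrower range. It was -0.08, -0.11 and 0.14 in Ogt-KD replicates 1 to 3, and 0.08, -0.12 and 0.09 in control replicates 1 to 3. The whole range over the libraries was 0.26 for the mitochondrial set and 0.81 for the cytosolic set. The difference of the cytosolic and the mitochondrial level was -0.21, -0.30 and 0.26 in Ogt-KD libraries and 0.20, -0.10 and 0.14 in control libraries, so the groups overlapped in this measure too.

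**Figure D2:**
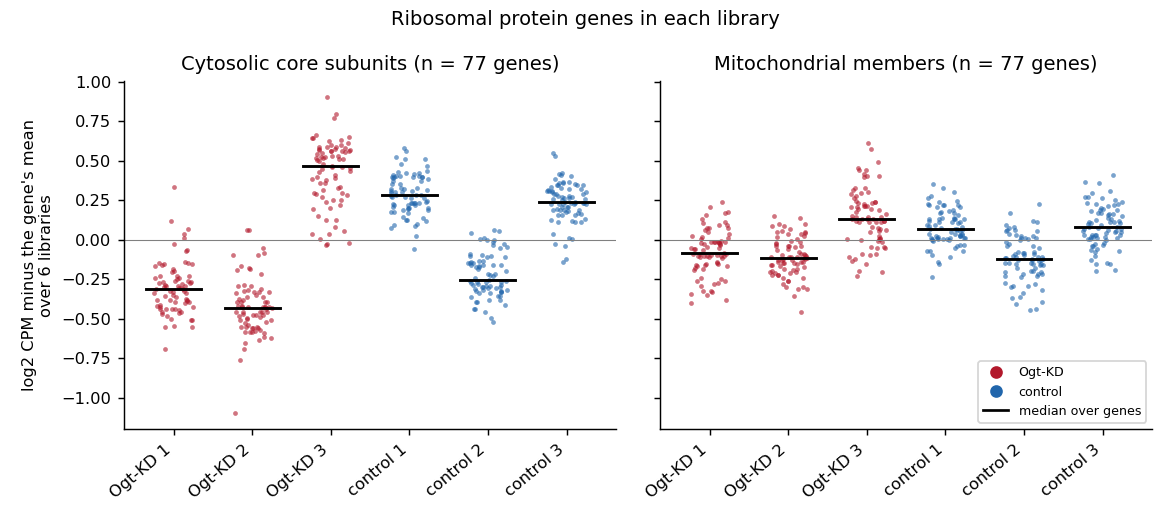
Log2 CPM of each gene minus that gene's mean over 6 libraries (y axis), 1 point per gene and black bars at the median, for 77 cytosolic core genes and 77 mitochondrial members in the 3 Ogt-KD and 3 control libraries. Ogt-KD replicates 1 and 2 and control replicate 2 lie below 0 and the other 3 libraries above, more widely in the cytosolic panel.

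The same was seen gene by gene. Ogt-KD replicate 3 was the highest library for 60 of the 77 core genes, and Ogt-KD replicate 2 the lowest for 71. Among mitochondrial members Ogt-KD replicate 3 was highest for 40 of 77 and control replicate 2 lowest for 28. Among 12519 tested protein-coding genes Ogt-KD replicate 3 was the highest library for 3298 and Ogt-KD replicate 2 the lowest for 2117.

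As a share of all counts, the cytosolic members held 7.89%, 7.18% and 12.3% in Ogt-KD libraries and 11.04%, 8.10% and 10.96% in control libraries. Mitochondrial members held 0.251%, 0.244% and 0.274% in Ogt-KD and 0.257%, 0.236% and 0.263% in control libraries. No 95% Wilson interval on a cytosolic share was wider than 0.029 percentage points, and these intervals cover counting error only. In FPKM, which scales for gene length, the summed cytosolic level was 42.1, 39.3 and 59.0 times the summed mitochondrial level in Ogt-KD libraries and 57.7, 45.9 and 55.2 times in control libraries. The large-subunit sum was 1.24, 1.23 and 1.23 times the small-subunit sum in Ogt-KD libraries and 1.20, 1.25 and 1.19 times in control libraries, so the balance of the subunits moved little while the set as a whole moved.

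Libraries of the same replicate number differed in different directions. Ogt-KD replicate 1 minus control replicate 1 had a median of -0.62 in log2 CPM over the core genes, with 75 of 77 lower in Ogt-KD. For replicate 2 the median difference was -0.21, with 72 lower. For replicate 3 it was 0.18, with 9 lower. In the mitochondrial set the median differences were -0.15, -0.002 and 0.05.

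The set medians moved with the libraries kept. Without Ogt-KD replicate 3 the cytosolic median log2FC was -0.47 and the mitochondrial one -0.12. In that fit 64 cytosolic members were lower at an unadjusted p under 0.05, where 8.78% of all genes were, and 9 mitochondrial members. The library left out had the highest cytosolic level, and the members share the same libraries, so these counts are a description. At an adjusted p under 0.05, 0 members passed (smallest 0.131, with 0.0122% of all genes called). Without Ogt-KD replicate 1 the medians were -0.06 and 0.01, and without Ogt-KD replicate 2 they were -0.02 and 0.03. Leaving out control replicates 1, 2 and 3 in turn gave cytosolic medians of -0.09, -0.30 and -0.13 and mitochondrial medians of -0.001, -0.09 and 0.0045. With the replicate block and both replicates 3 left out, 1 member of either set passed, Rpl17, a large-subunit protein at the exit of the peptide tunnel, with a log2FC of -0.92 (SE 0.14, edgeR adjusted p = 0.0401), where 1.81% of all genes passed. In the fit of all 6 libraries Rpl17 had a log2FC of -0.24 (SE 0.43, edgeR adjusted p = 0.972), with 590, 354 and 1315 CPM in Ogt-KD libraries and 940, 792 and 935 CPM in control libraries. Pseudogenes named after Rpl17 held 88827 counts against 108786 for Rpl17 itself. Its reads may thus be divided between near-identical copies, and its values are uncertain.

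**Figure D3:**
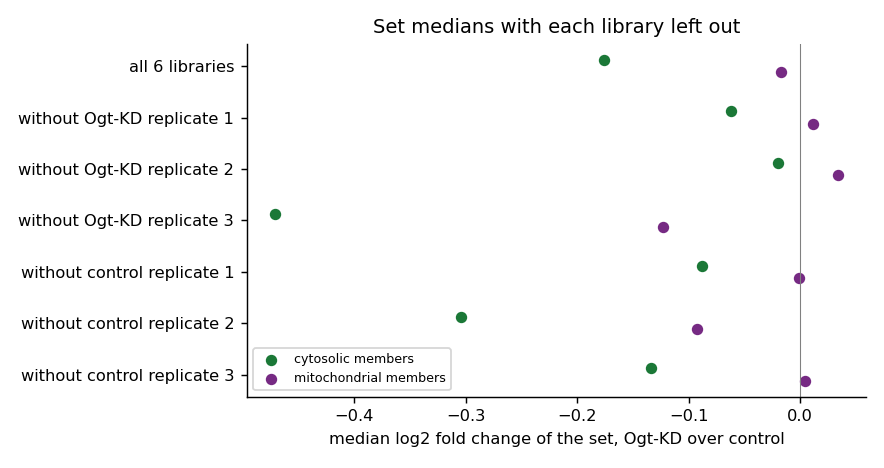
Median log2FC of Ogt-KD over control (x axis) of the 89 cytosolic and the 77 mitochondrial members with all 6 libraries and with each library left out in turn (y axis). The cytosolic median runs from -0.47 without Ogt-KD replicate 3 to -0.02 without Ogt-KD replicate 2, and the mitochondrial median lies between -0.12 and 0.03.

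Levels of other cell types' markers also split by library. All 8 macrophage markers were tested and none was at 0 in every library. Their summed counts ran from 12904 to 86292 in Ogt-KD and from 33593 to 68298 in control libraries, and their mean deviation in log2 CPM was -1.17, -0.90 and 0.93 in Ogt-KD replicates and -0.03, 0.01 and 1.17 in control replicates. C1qa, a defining macrophage gene of the complement system, had 91.8, 117 and 482 CPM in Ogt-KD and 236, 253 and 544 CPM in control libraries. The 8 erythroid markers summed to 864, 1164 and 5262 counts in Ogt-KD and 814, 442 and 911 counts in control libraries, not scaled for library size. Their mean deviation in log2 CPM was -0.09, 0.41 and 2.07 in Ogt-KD replicates and -1.14, -1.34 and 0.09 in control replicates. The 13 mitochondrially encoded messages, which are the templates of the mitochondrial ribosome, deviated by -0.21, -0.45 and 0.45 in Ogt-KD and 0.34, -0.34 and 0.22 in control libraries, in signs the same split as the ribosomal protein genes. The part of each of these in the ribosomal protein levels was not tested. In bulk RNA, fewer cells of a type and less RNA per cell cannot be told apart.

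Among the large-subunit genes, Rpl8, a protein near the catalytic centre, had the smallest p. It had 1592, 1401 and 1807 CPM in Ogt-KD libraries, against 2008, 1833 and 2019 CPM in control libraries. All Ogt-KD values lay below all control values, the mean was 1600 ± 203 against 1953 ± 104 CPM (SD, n = 3 each), and the log2FC was -0.29 (SE 0.14, 95% interval -0.61 to 0.04, edgeR adjusted p = 0.686). Rpl14 had 691, 646 and 709 CPM in Ogt-KD libraries, against 795, 731 and 785 CPM in control libraries. Here too the groups did not overlap, at a log2FC of -0.18 (SE 0.10, edgeR adjusted p = 0.766). Without overlap and lower in Ogt-KD were 3 cytosolic members (Rpl8, Rpl14 and the paralog Rpl7l1) and 4 mitochondrial ones. Of all genes tested, 5.88% were lower without overlap and 7.43% higher, 13.3% in all, so these counts were at or under the background.

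**Figure D4:**
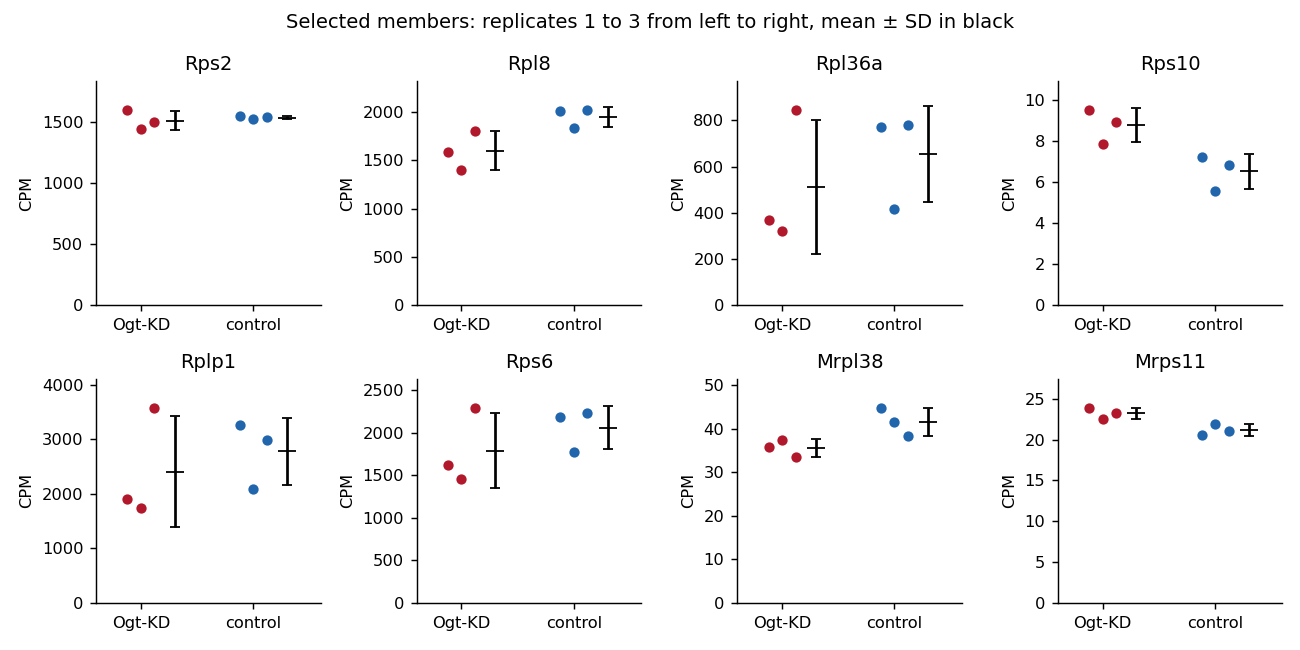
CPM (y axis, from 0) of 8 members in the 3 Ogt-KD and 3 control libraries, with replicates 1 to 3 from left to right and the mean ± SD in black. Rps2 is nearly level over the libraries, Rpl36a and Rplp1 spread widely within both groups, and Rpl8 and Mrpl38 lie lower and Rps10 and Mrps11 higher in Ogt-KD without overlap, while none passed the test.

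Of the proteins of the acidic stalk, which recruits elongation factors to the large subunit, Rplp1 and Rplp0 were among the most abundant messages. Rplp2, at 491 FPKM, lay under the median of the core genes, 604 FPKM. Rplp1 had the highest mean FPKM of all members, 5167, and stood at 1911, 1738 and 3574 CPM in Ogt-KD libraries and 3270, 2096 and 2979 CPM in control libraries. Rplp0, the stalk base, had 2679, 2329 and 3419 CPM in Ogt-KD and 3249, 2913 and 3432 CPM in control libraries. Rplp2 had 1003, 879 and 1025 CPM in Ogt-KD and 1108, 1023 and 1105 CPM in control libraries. Ogt-KD replicates 1 and 2 were low in all 3 genes, while replicate 3 was above every control library in Rplp1 only. Their log2FC values were -0.21 (SE 0.31), -0.19 (SE 0.18) and -0.15 (SE 0.11) for Rplp1, Rplp0 and Rplp2.

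Rpl5 and Rpl11, which can bind and inhibit Mdm2 when ribosome assembly is disturbed, followed the common pattern. Rpl5 had 1323, 1170 and 2608 CPM in Ogt-KD libraries and 2299, 1333 and 2246 CPM in control libraries. Rpl11 had 925, 913 and 1867 CPM in Ogt-KD and 1488, 1124 and 1475 CPM in control libraries. In both, Ogt-KD replicate 3 was the highest library and the other Ogt-KD libraries the lowest. The log2FC values were -0.20 (SE 0.35) and -0.14 (SE 0.30).

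In the small subunit, Rps6, the protein phosphorylated by S6 kinase downstream of mTORC1, had 1618, 1463 and 2294 CPM in Ogt-KD libraries and 2184, 1773 and 2232 CPM in control libraries. The groups overlapped and the log2FC was -0.20 (SE 0.20, edgeR adjusted p = 0.929). Rps19, whose human counterpart is often mutated in Diamond-Blackfan anaemia, had 1321, 1179 and 1945 CPM in Ogt-KD and 1863, 1463 and 1896 CPM in control libraries. Rps27a, made as a fusion with ubiquitin, had 476, 585 and 1313 CPM in Ogt-KD and 1149, 626 and 789 CPM in control libraries. Rpsa, a small-subunit protein also known as a laminin receptor, had 2467, 2253 and 4311 CPM in Ogt-KD and 3431, 2700 and 3622 CPM in control libraries. All 4 had Ogt-KD replicate 1 or 2 as the lowest library. Rps3a1, the small-subunit gene of highest level with 2251 FPKM, had a log2FC of -0.35 (SE 0.37).

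Of the core genes, 3 had a log2FC above 0, Rps10, Rpl13a and Rpl24, and these were also the 3 lowest in level. The mean FPKM was 3.29 for Rps10, 3.86 for Rpl24 and under 20 for Rpl13a, while the other 74 core genes had at least 90 FPKM and 0 lay between 20 and 90. Rps10 had 9.50, 7.86 and 8.95 CPM in Ogt-KD libraries, against 7.22, 5.56 and 6.82 CPM in control libraries, with no overlap and a log2FC of 0.43 (SE 0.18, edgeR adjusted p = 0.650). Rpl13a and Rpl24 overlapped, at 0.06 (SE 0.15) and 0.00 (SE 0.23). Each of the 3 shares exons on its strand with a second annotated gene, RPS10-NUDT3, Gm45713 and Gm28037, which all had 0 counts. An overlap of exons with another gene on the same strand was found for 27 of the 77 core genes, mostly with genes of small RNAs. In the highly expressed Rpsa, for example, it was the snoRNA gene Gm24044. RPS10-NUDT3 and Gm45713 are annotated as protein-coding and Gm28037 as a processed transcript. Rpl19, at 1056 FPKM, also overlaps a processed transcript, Gm11629. The part of these overlaps in the low levels was not tested. Pseudogenes named after Rps10 held 47600 counts against 990 for Rps10 itself, so its reads may be divided between near-identical copies and its value is uncertain. In all, 297 pseudogenes named Rpl or Rps held 0.35% of counts, and 58 of the 77 core genes had at least 1.

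Paralogs of core genes were mostly low. Rpl22, needed for development of T cells in the mouse, had 382, 367 and 771 CPM in Ogt-KD and 667, 373 and 612 CPM in control libraries, and its paralog Rpl22l1 had 82.3, 81.1 and 177 CPM in Ogt-KD and 165, 97.2 and 150 CPM in control libraries. Both showed the common split, so the pair moved alike over the libraries. Rpl7l1 had 66.5, 68.8 and 73.5 CPM in Ogt-KD, against 77.3, 74.7 and 82.2 CPM in control libraries, without overlap, at -0.17 (SE 0.08, edgeR adjusted p = 0.701). Rps27l, a paralog of Rps27 that p53 induces in human cells, had 36.7, 39.5 and 63.1 CPM in Ogt-KD and 47.5, 32.7 and 55.4 CPM in control libraries. Rpl39l, in mouse mainly a testis gene, had 1.45 FPKM with a log2FC of 0.86 (SE 0.52, edgeR adjusted p = 0.793). The 4 members on the X chromosome, where Ogt lies, were Rpl10, Rpl36a, Rpl39 and Rps4x, with log2FC values from -0.36 to -0.09.

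How widely a core gene varied between libraries differed strongly among members. The SD of log2 CPM over all 6 libraries had a median of 0.39 over the core genes and ran from 0.05 to 0.66, and it had a median of 0.15 over mitochondrial members and 0.20 over 12519 protein-coding genes. Rps2 stood at 1593, 1437 and 1496 CPM in Ogt-KD and 1545, 1521 and 1535 CPM in control libraries, an SD of 0.05, and Rpl28 had an SD of 0.06. Rpl36a stood at 371, 320 and 844 CPM in Ogt-KD and 772, 416 and 781 CPM in control libraries, an SD of 0.63. Its highest and lowest libraries were thus both Ogt-KD, while Rps2 was nearly level in the same libraries. Rps2, Rpl28, Rpl17, Rps7 and Rpl31 are named for their spread or sequence and were chosen after their values were seen.

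The spread went with base composition. Across the 77 core genes, Spearman's rho of the SD with the G+C content of the GENCODE M21 coding sequence was -0.49, with coding length -0.31 and with level 0.01. Across 77 mitochondrial members the rho with G+C was -0.30, and across 12495 protein-coding genes 0.03. With level it was 0.05 across the mitochondrial members and -0.48 across 12519 protein-coding genes. The spread of all genes thus went with level, so their rho with G+C is not a like comparison. Genes are not independent replicates and these share libraries, so rho is a description. In the 25 core genes of lowest G+C, 44.9% to 50.6%, the median deviation was -0.42, -0.50 and 0.57 in Ogt-KD replicates and 0.40, -0.33 and 0.31 in control replicates. In the 26 of highest G+C, 54.7% to 61.6%, it was -0.27, -0.36 and 0.32 in Ogt-KD and 0.22, -0.17 and 0.20 in control replicates. The same libraries were high and low in both parts, more widely at low G+C. A loess correction for transcript G+C in each library, added after seeing the data, gave a cytosolic median log2FC of -0.18. The value without it was also -0.18. No SD between libraries after the correction is given here, so these medians do not bear on the spread. Of the core genes with a RefSeq start, the 13 with a run at the exact start had a median SD of 0.41 and the 44 without one 0.36. Within 10 bases of the start the order was the other way, 0.35 for the 34 with a run and 0.36 for the 23 without one, so no relation of the run with the spread is read from these values.

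**Figure D5:**
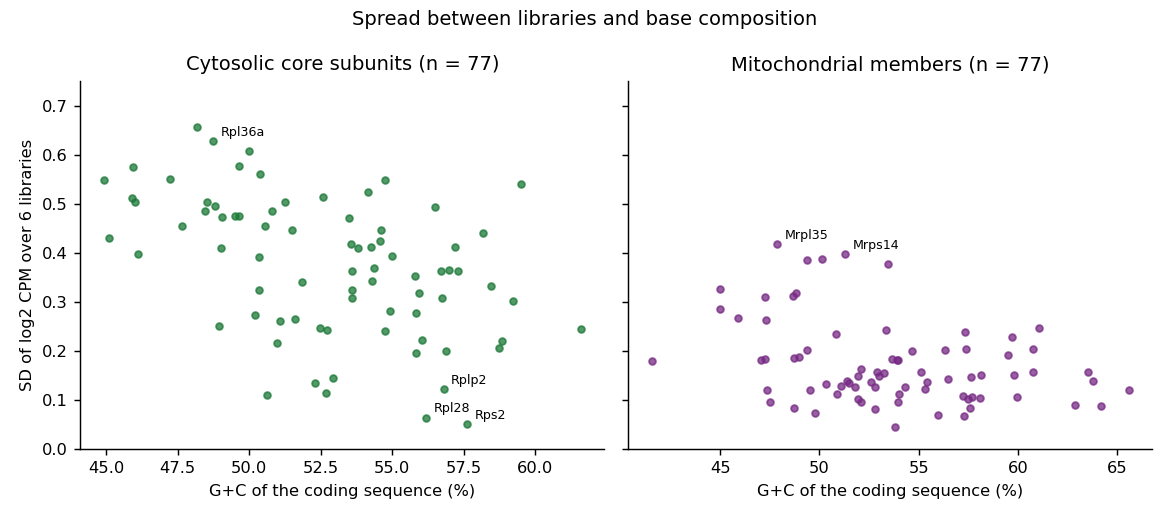
SD of log2 CPM over the 6 libraries (y axis) against the G+C content of the coding sequence in percent (x axis), 1 point per gene, for 77 cytosolic core genes and 77 mitochondrial members. Core genes of low G+C such as Rpl36a lie high and Rps2, Rpl28 and Rplp2 low, and the mitochondrial points lie mostly under 0.25.

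Mitochondrial members were expressed far below the cytosolic core genes, with a median mean FPKM of 13.2 against 604. Mrps21 was highest with 62.4 FPKM, followed by Mrpl52 with 53.8, and Mrpl47 was the lowest tested with 2.68. Mrpl38 had the smallest p, with 35.8, 37.4 and 33.5 CPM in Ogt-KD libraries, against 44.7, 41.5 and 38.3 CPM in control libraries. The groups did not overlap, at a log2FC of -0.22 (SE 0.10, 95% interval -0.46 to 0.01, edgeR adjusted p = 0.669). Mrps15 had 38.4, 37.0 and 39.6 CPM in Ogt-KD, against 46.5, 41.2 and 44.4 CPM in control libraries, also without overlap, at -0.20 (SE 0.09, edgeR adjusted p = 0.669). Mrps25 and Mrps18a were the other members lower without overlap, at -0.22 (SE 0.12) and -0.12 (SE 0.09). Mrps11 was the 1 member higher without overlap, with 23.9, 22.5 and 23.3 CPM in Ogt-KD, against 20.5, 21.95 and 21.01 CPM in control libraries, at 0.13 (SE 0.10, edgeR adjusted p = 0.859). The largest value above 0 was that of Mrpl16, 0.16 (SE 0.11).

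Mitochondrial members with known roles outside or at the core of the ribosome showed no call either. Mrpl12, which also binds mitochondrial RNA polymerase, had 24.7, 26.9 and 36.8 CPM in Ogt-KD and 34.8, 27.0 and 31.0 CPM in control libraries. Mrps12, a protein of the decoding site, had 20.6, 24.5 and 19.5 CPM in Ogt-KD and 23.5, 25.7 and 24.2 CPM in control libraries. Both overlapped between the groups. Mrps34, Mrps5 and Mrpl28 had log2FC values of 0.05 (SE 0.13), -0.10 (SE 0.14) and 0.02 (SE 0.11). The most variable members were Mrpl35 and Mrps14, with SDs over the libraries of 0.42 and 0.40. In all, 8 mitochondrial members share exons on their strand with another annotated gene, among them Mrps6 with Slc5a3, Mrps24 with Urgcp and Mrps34 with Nme3. An antisense gene lies over an exon of 28, among them Mrps11 and Mrps25, and the sources name no strand setting. The reads of such overlapping genes cannot be told apart with certainty.

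Other genes of the translation machinery gave 0 called genes in every list, against 0.00622% of all genes tested. With so few genes called in all, this is no result about the lists. Ribosome subunits named otherwise had a median of -0.11 for 3 cytosolic genes, among them Rack1 (-0.20, SE 0.22) and Fau (-0.11, SE 0.15), and -0.12 for 5 mitochondrial genes, among them Dap3 (-0.16, SE 0.08). Of 63 ribosome biogenesis genes 52 were below 0, with a median of -0.07. Ubtf, a transcription factor of ribosomal RNA genes, had a log2FC of -0.16 (SE 0.08), and Imp4, a part of the processing complex of the small subunit, -0.19 (SE 0.08). Of 18 translation factors and related genes with TOP messages 13 were below 0 (median -0.05), and of 43 other translation factors 33 (median -0.04). Eif5b, which joins the subunits, was at -0.22 (SE 0.08, edgeR adjusted p = 0.609). Of 48 genes of mitochondrial translation 28 were below 0 (median -0.04), and Ears2, the mitochondrial glutamyl-tRNA synthetase, was at -0.44 (SE 0.15, edgeR adjusted p = 0.600). Of the 13 mitochondrially encoded messages 11 were below 0 (median -0.13).

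The proliferation list lay above 0, unlike the ribosomal proteins. All 10 of its genes were above 0, with a median log2FC of 0.82. At an unadjusted p under 0.05 there were all 10, against 7.52% of all genes tested, and edgeR called 0 of them, against 0.00622% of all genes. The list was chosen with earlier results of these data known, and its genes share the same libraries. The count of 10 is therefore a description and no support for a change. Kif11, a mitotic kinesin, had 83.4, 80.1 and 58.4 CPM in Ogt-KD libraries, against 30.1, 40.6 and 45.6 CPM in control libraries, with no overlap and a log2FC of 0.93 (SE 0.19, edgeR adjusted p = 0.483). DESeq2 called Kif11 (adjusted p = 0.00900) and Cenpf, a centromere protein (adjusted p = 0.0215), where it called 0.784% of all genes. The mean deviation of the list was 0.61, 0.55 and 0.12 in Ogt-KD replicates 1 to 3 and -0.87, -0.24 and -0.17 in control replicates 1 to 3. Ogt-KD replicates 1 and 2, lowest in ribosomal protein messages, were the highest in this list. The other libraries did not all follow this contrast: Ogt-KD replicate 3, highest in ribosomal protein messages, was above every control in the list too, and control replicate 2 was below 0 in both.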

How the data were processed

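RNA-seq libraries, 6 in all, were made with an Illumina TruSeq kit, per the labels' protocols. Per the submitters' processing notes, Bowtie2 2.0.6, TopHat2 2.0.9 and mm9 were used. The sources used here name no counting tool and no strand setting. The authors deposited integer read counts per gene, with total counts as given above. The authors' FPKM equals the deposited count over gene length in kilobases and 1 constant per library. The authors' deposited log2 fold changes, p-values and adjusted p-values were read for comparison only, and the deposited gene lengths entered the FPKM check and the gene length offset. The authors' mean signal entered no result. Of the 54532 gene IDs, 54495 are in GENCODE M21, 53585 with identical coordinates, so positions are on GRCm38.

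Counts were tested with edgeR 4.0.16 (TMM, filterByExpr, robust quasi-likelihood F test) in R 4.3.3, with Benjamini-Hochberg adjustment over 16075 genes and a threshold of 0.05. DESeq2 1.42.0 and limma-voom (limma 3.58.1), other scalings and filters, offsets for gene length and G+C, and leaving out libraries were alternatives, 24 in all. The SE and 95% interval given for edgeR were computed back from the log2FC and its F statistic. Log2 CPM used a prior count of 2 for set levels. The test script was checked on simulated data. Deviations of same-numbered Ogt-KD and control libraries from their group means correlated at 0.109, 0.346 and 0.523, all above 0.1, so the replicate number was also fitted as a block. The labels state no pairing, and Ogt-KD replicate 1 with control replicate 2 gave 0.267. Markers of B cells, plasma cells, dendritic cells, macrophages, neutrophils, erythroid and NK cells were listed. Named genes were, in each set, the 4 with the smallest p per direction, the 2 highest and 2 lowest by FPKM, paralog pairs and textbook members, and the 2 smallest p of each other list. Members and lists were chosen with earlier results of these data known. Of the genes this rule names, 1 is not reported here.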

Additional observations from a re-analysis of the deposited data

How the results depend on the processing

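Of all results, the number of genes called over the whole table depended most on the processing. It was 1 in the edgeR fit without a block and 2 with cyclic loess, 4 without a filter, 0 with at least 10 counts in every library, 126 with DESeq2, 47 with the replicate block, 76 with the replicate block and DESeq2 size factors, 110 with the replicate block and the G+C offset and 35 without both replicates 3. Leaving out 1 library gave 1 to 2. With the replicate block and replicate 1, 2 or 3 of both groups left out it was 295, 2 and 295. Called cytosolic members numbered 0 throughout, except 1 with the block and both replicates 3 left out, and called mitochondrial members 0 throughout. The replicate block changed no other call among members. The cause of these differences was not tested. The cytosolic median stayed below 0 under all 24 alternatives, between -0.47 and -0.02, and was -0.10 with cyclic loess. The mitochondrial median changed sign under some, between -0.12 and 0.04. With library sizes alone the median of all genes was 0.05, and relative to it the cytosolic median was lower (-0.13) and the mitochondrial one near it (0.04). Of the named genes, up to 11 of 62 changed sign under 1 alternative, none of them called. With 3 libraries a group, counting error on the summed cytosolic share was small beside the spread between libraries. For single genes counting error was not computed, and it weighs more in genes of few counts.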

Other observations

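Markers of other cells in the same libraries gave these mean deviations in log2 CPM. T cell markers were at -0.02, -0.12 and 0.01 in Ogt-KD and 0.14, -0.03 and 0.02 in control libraries. B cell markers were at 0.40, -0.02 and 0.07 in Ogt-KD and -0.35, 0.13 and -0.22 in control libraries. Dendritic cell markers were at 0.67, 1.02 and -0.05 in Ogt-KD and -0.23, 0.12 and -1.53 in control libraries. Neutrophil markers were at 0.03, 0.88 and -0.42 in Ogt-KD and -0.57, -0.26 and 0.34 in control libraries. Plasma cell markers were at 0.17, -0.14 and 0.12 in Ogt-KD and -1.04, 0.45 and 0.43 in control libraries. CD8 genes were at 0.09, 0.36 and -0.35 in Ogt-KD and 0.10, 0.26 and -0.47 in control libraries. NK markers, of which 1 of 4 was tested, were at -0.18, -0.49 and 0.82 in Ogt-KD and -0.20, -0.44 and 0.49 in control libraries. Their part in the levels of ribosomal protein genes was not tested.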
